A study of Mus musculus with 24 samples.

Results

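The leukocyte adhesion and integrin genes were 9 genes taken by name from the 55536 genes of the read-count table, namely the endothelial ligands Icam1, Vcam1 and Madcam1 and the leukocyte receptor genes Itga4, Itgb7, Itgal, Itgb2, Itgam and Selplg. All 9 were among the 14076 genes that passed the filter on low counts. Expression was measured by RNA-seq of the distal small intestine, labelled ileum, in 24 C57BL/6N mice, with 1 library per animal and each animal drawn from its own cage. The mice entered the experiment at 4 to 5 weeks of age and formed 4 groups of 6 animals, 3 males and 3 females in each. The CD group ate a control diet with 10% of energy from fat, and the HFD group ate a high-fat diet with 60% of energy from fat. The CDmetf and HFDmetf groups ate the same respective diets and received metformin, an oral glucose-lowering drug, in the drinking water (50 mg/kg/day), which began after 20 weeks on the diet and lasted 10 weeks with the diet kept. The labels give no transgene or deletion for any group, and they call the animals on the high-fat diet obese and those on the control diet healthy.

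Leukocytes leave the blood by binding to ligands on the vessel wall. P-selectin glycoprotein ligand 1, encoded by Selplg, starts the rolling of leukocytes on selectins, and integrins then hold the cell firmly. LFA-1, the pair of the Itgal and Itgb2 chains, and Mac-1, the pair of Itgam and Itgb2, bind ICAM-1. VLA-4, which contains the Itga4 chain, binds VCAM-1. The integrin formed by Itga4 and Itgb7 binds MAdCAM-1, the ligand of the high endothelial and lamina propria venules of the gut, and directs lymphocytes to intestinal tissue. Icam1 is also made by epithelial and immune cells and Vcam1 by stromal cells and macrophages, so a whole-tissue level is not a level of endothelium alone.

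Promoters, each a window that begins before the gene start and ends just inside the gene, were found in RefSeq (GRCm38.p6) for 5 of the 9 genes (Icam1, Madcam1, Itga4, Itgb7 and Itgam). They were searched on both strands for the NF-kappa B motif (GGG, any 2 bases, then TTTCC), since NF-kappa B is known to act on adhesion ligands, and for the PU.1 motif GAGGAAGT, since PU.1 is a factor of leukocyte genes. Of 32851 promoters of this length, 535 (1.63%) held the first and 1052 (3.20%) held the second. The Madcam1 and Itgb7 promoters are shown because they belong to a matching ligand and receptor chain. They held the only exact matches to these 2 motifs among the 5 genes, and capitals mark the matches. Sites of other forms were not searched, so a promoter without a match, such as that of Icam1, cannot be said to lack a site.

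Madcam1, GRCm38.p6 chr10:79664309-79664608, plus strand: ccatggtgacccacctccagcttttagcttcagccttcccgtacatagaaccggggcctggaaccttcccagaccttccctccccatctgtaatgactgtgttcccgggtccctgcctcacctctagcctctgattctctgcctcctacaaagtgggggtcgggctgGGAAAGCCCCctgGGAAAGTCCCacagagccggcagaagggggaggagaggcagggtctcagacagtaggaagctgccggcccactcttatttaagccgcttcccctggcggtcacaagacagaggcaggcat
Itgb7, GRCm38.p6 chr15:102231886-102232185, minus strand: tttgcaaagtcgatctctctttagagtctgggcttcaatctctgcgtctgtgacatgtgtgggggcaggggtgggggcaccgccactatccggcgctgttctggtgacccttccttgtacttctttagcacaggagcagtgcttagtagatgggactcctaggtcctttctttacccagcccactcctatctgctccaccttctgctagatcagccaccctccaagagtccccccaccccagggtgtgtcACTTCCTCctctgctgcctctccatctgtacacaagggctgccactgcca

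Madcam1 held 2 matches to the NF-kappa B motif, both on the strand opposite to the gene, with first bases at -83 and -70 from the gene start. They do not overlap each other. Itgb7 held 1 match to the PU.1 motif on the opposite strand, with its first base at 1, counted from the gene start of RefSeq, which lies inside the span that GENCODE gives the gene. A match is a run of letters and not a measured binding site, and binding was not measured here.

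The libraries differed widely in depth, from 1829690 to 40606442 reads on genes, so a given level in CPM (the count scaled to the library size after TMM correction for composition) rested on fewer reads in the shallow libraries. Counts of a member in a single library ran from 3 reads for Madcam1 to 2095 reads for Itga4. The 10 largest genes took 85.4% of the reads on genes in CD M3 and 36.6% in HFDmetf F2, against 9.22% to 19% elsewhere. The library labelled HFD M2 held 3355 reads of Xist and 0 of the Y-linked genes, and the library labelled HFD F2 held 1 and 423, so both go against their labelled sex; they were kept under their labels, and results are also given with both removed. Of the ileal markers Fabp6, Slc10a2 and Fgf15, the summed level ran from 5.72 to 3653 CPM among libraries, and that of the proximal markers Fabp1, Lct and Gata4 from 1.50 to 4656 CPM. HFD M3 held both the lowest ileal and the highest proximal sum, so the markers of the segment differed widely among animals. The part of this in the results was not tested.

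The length of a gene was that of all its annotated exons merged, such as 13978 bp for Itga4, 8870 bp for Vcam1 and 3052 bp for Itgb2. The transcripts in use can be shorter, so the order below depends on this choice of length. Per kilobase of merged exons, Itgb2 had the highest level of the 9 genes, with a median of 4.33 CPM per kb over the 24 libraries. It was above the next gene, Itgb7 (2.34 CPM per kb), in 24 of 24 libraries. Itga4 followed with a median of 2.14, Vcam1 with 1.78, Itgal with 1.76, Madcam1 with 1.68, Selplg with 1.64, Icam1 with 1.19 and Itgam with 0.792 CPM per kb. Between every later pair of neighbours in this order, the mean difference within libraries was smaller than its SD. Vcam1, for example, was above Itgal in 9 of 24 libraries only. With these lengths, the beta chain that LFA-1 and Mac-1 share had the highest level, and the alpha chain of Mac-1, a molecule of myeloid cells, the lowest. Levels in CPM without the length term are not compared between genes.

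**Figure D1:**
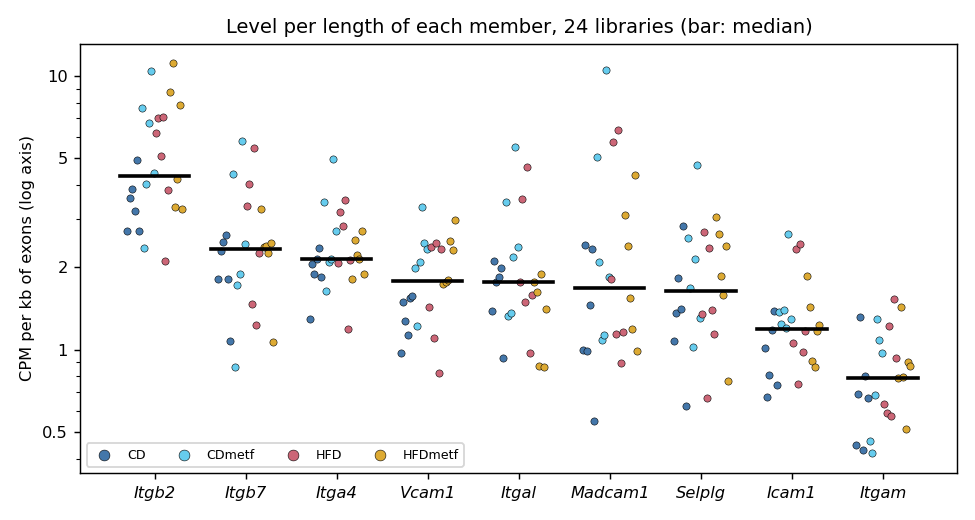
Level of each of the 9 genes per kilobase of merged annotated exons (log axis) in 24 libraries, ordered by the median, which is drawn as a bar. Points are coloured by group. Itgb2 has the highest median, at 4.33 CPM per kb, and Itgam the lowest, at 0.792 CPM per kb.

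Icam1, on chromosome 9 from 21015985 to 21028817 (GRCm38), ranged from 2.92 to 6.03 CPM in CD with a median of 3.98, from 5.23 to 11.5 in CDmetf (median 5.81), from 3.27 to 10.6 in HFD (median 4.87) and from 3.78 to 8.12 in HFDmetf (median 5.25). All 4 groups overlapped, and CDmetf F2, HFD F1 and HFD M2 lay above 10 CPM. Vcam1 (chromosome 3, 116109949 to 116129688) ranged from 8.62 to 14 CPM in CD (median 12.3), from 10.8 to 29.4 in CDmetf (median 19.6), from 7.28 to 21.8 in HFD (median 16.8) and from 15.4 to 26.3 in HFDmetf (median 18.2). The ranges of CDmetf and CD met, although 5 of 6 CDmetf libraries lay above every CD library. Madcam1 (chromosome 10, 79664559 to 79668537) ranged from 0.787 to 3.46 CPM in CD (median 1.76), from 1.57 to 15.1 in CDmetf (median 2.83), from 1.28 to 9.14 in HFD (median 2.14) and from 1.42 to 6.26 in HFDmetf (median 2.83). Its highest libraries were CDmetf F2 at 15.1 CPM, HFD F1 at 9.14, HFD M2 at 8.23 and CDmetf M1 at 7.27, while the other libraries of these groups lay between 1.28 and 3.01 CPM.

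Itga4 (chromosome 2, 79255426 to 79333123) ranged from 18.1 to 32.8 CPM in CD (median 27.6), from 22.8 to 69.7 in CDmetf (median 34.1), from 16.7 to 49.2 in HFD (median 34.6) and from 25.3 to 38.1 in HFDmetf (median 30.4). Itgb7 (chromosome 15, 102215995 to 102231944) ranged from 2.99 to 7.30 CPM in CD (median 5.70), from 2.40 to 16.1 in CDmetf (median 5.98), from 3.43 to 15.2 in HFD (median 7.76) and from 2.95 to 9.07 in HFDmetf (median 6.62). For both chains, CDmetf F2 and HFD F1 held the highest values of their groups and the groups overlapped. Itgal (chromosome 7, 127296260 to 127335138) ranged from 6.14 to 13.8 CPM in CD (median 11.8), from 8.72 to 36.05 in CDmetf (median 15), from 6.42 to 30.4 in HFD (median 11.0) and from 5.69 to 12.5 in HFDmetf (median 9.96). Each HFDmetf library lay below the CDmetf median, although the ranges met. Itgb2 (chromosome 10, 77530252 to 77565708) ranged from 8.29 to 15.1 CPM in CD (median 10.3), from 7.22 to 31.8 in CDmetf (median 17.1), from 6.42 to 21.6 in HFD (median 17.2) and from 10.0 to 33.9 in HFDmetf (median 18.4).

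The group medians of Itgam lay close together. Itgam (chromosome 7, 128062640 to 128118491) had group medians of 3.41 CPM in CD, 4.17 in CDmetf, 3.95 in HFD and 4.19 in HFDmetf, within a range of 2.10 to 7.71 over all libraries. Its highest library was HFD F2, which was the lowest of the HFD group for 6 of the other members. Selplg (chromosome 5, 113818536 to 113832644) had group medians of 5.93, 8.18, 5.89 and 9.10 CPM in the same order, within a range of 2.68 to 20.3.

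**Figure D2:**
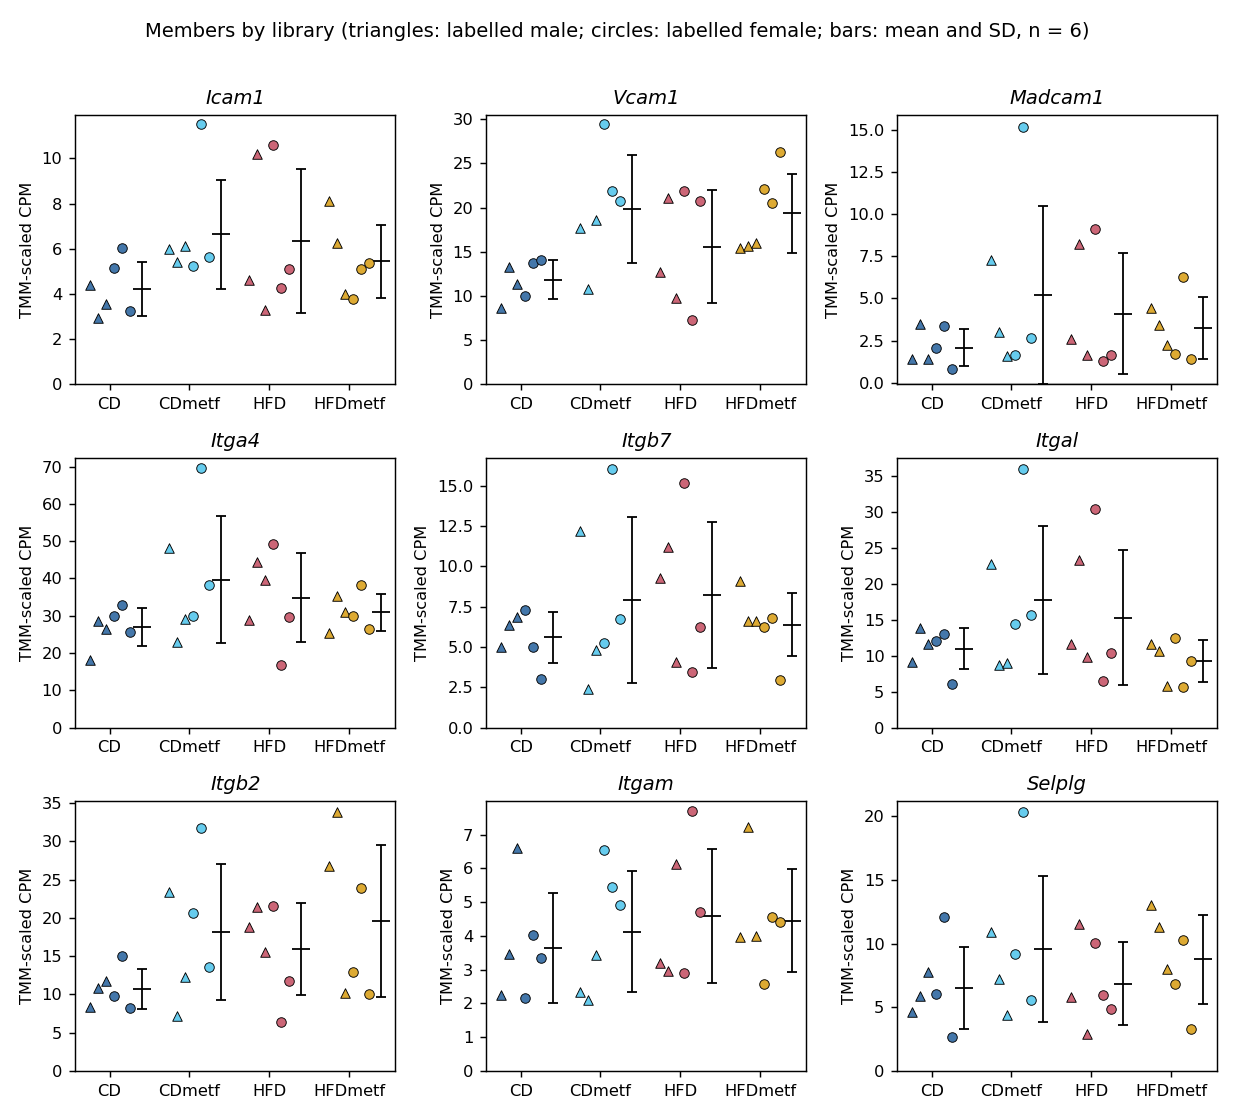
TMM-scaled CPM of each gene in each library by group (triangles, labelled males; circles, labelled females), with the mean and SD of 6 animals beside the points. In the 4 comparisons made the groups overlap for all 9 genes, and CDmetf F2 reaches 15.1 CPM for Madcam1 and 36.05 CPM for Itgal.

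The comparison of HFD with CD asks what the high-fat diet alone went with. All 9 genes had fitted values above CD, with a median log2 fold change (logFC) of 0.49 against -0.0047 over all genes tested, of which 48.8% had values above 0, but none passed a false discovery rate (FDR) of 0.05 in the edgeR quasi-likelihood test. The largest value was that of Madcam1, the ligand of gut-homing lymphocytes, with logFC = 1.13 (SE 0.47), followed by Icam1, the ligand of LFA-1, with logFC = 0.62 (SE 0.27). These 2 genes were the members with an unadjusted p under 0.05, and 2.59% of all genes were higher at that threshold. The receptor genes ran from logFC = 0.15 for Selplg to 0.60 for Itgb2 (SE 0.32). No gene of the whole table was called (0%), and the FDR of each member was 0.9997. DESeq2, which called 0.0924% of all genes, and limma-voom, which called 0%, also called 0 of the 9. At the unadjusted threshold DESeq2 had 3 members, where 5.88% of all genes passed, and limma-voom 7, where 7.03% did.

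The HFD vs. CD call depended on how libraries were weighted. limma-voom with sample quality weights, in which libraries with less scatter count more, called 7 of the 9 genes higher (all but Itga4 and Itgam), beside 5.14% of all genes called higher, with logFC = 1.74 and FDR = 0.0037 for Madcam1. The libraries with the highest weights were HFD F1 (3.21) and CD F3 (3.15). HFD F1 was the highest HFD library for 7 members and CD F3 the lowest CD library for 5 members. Leaving out libraries at such opposite ends narrows the difference of these members by itself. No other pair was left out of the weighted fit. Without HFD F1 and CD F3 the same weighted fit called 0 of the 9 genes and 0.0279% of all genes in either direction, against 10.1% with them. Vcam1 was then at logFC = 0.58 (FDR = 0.318) and Madcam1 at 0.66 (FDR = 0.607). Vcam1 was the member with an unadjusted p under 0.05, where 10.9% of all genes had one. Within the pairs of animals of replicate numbers 1, 2 and 3, Madcam1 differed by 1.46, -0.048 and 0.60 in mean log2 CPM and Icam1 by 0.55, 0.64 and 0.26. Without CDmetf F2 and HFD F1, the edgeR logFC of Madcam1 was 0.58, and the count of members below the unadjusted threshold was 0, where 3.59% of all genes were. With HFD M2 and HFD F2 removed that count was 4, where 3.94% of all genes were.

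The comparison of CDmetf with CD asks what metformin went with under the control diet. All 9 genes again had fitted values above CD, with a median logFC of 0.67 against -0.0023 over all genes, of which 49.6% had values above 0. Vcam1, the ligand of VLA-4, had logFC = 0.73 (SE 0.23), which was 1.66-fold, with 5 of 6 CDmetf libraries above every CD library. Madcam1 had logFC = 1.31 (SE 0.47), Icam1 0.68, Itgb2 0.75 and Itga4 0.55. These were 5 members with an unadjusted p under 0.05 and a higher value, where 2.74% of all genes were, yet none passed FDR 0.05 (0% of all genes did) and the lowest FDR of a member was 0.940. All 3 ligands were among these 5, with a median logFC of 0.73 for the ligands and 0.54 for the receptors.

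In this comparison DESeq2 (0.0284% of all genes called) and limma-voom (0%) also called 0 of the 9 genes. At the unadjusted threshold DESeq2 had 6 members, where 6.26% of all genes passed, and limma-voom 7, where 6.15% did. With sample quality weights, Vcam1 and Selplg passed (FDR = 0.0474 and 0.0475), beside 0.242% of all genes called higher. Once HFD F1 and CD F3 were left out, the weighted fit called 0.0698% of all genes in either direction, and Vcam1 stood at logFC = 0.88 with FDR = 0.0531 and Selplg at 0.78 with FDR = 0.150. In that fit 6 of the 9 genes had an unadjusted p under 0.05, where 13.7% of all genes did. Without CDmetf F2 and HFD F1, Vcam1 (logFC = 0.72) and Madcam1 (0.86) were the members left with an unadjusted p under 0.05, where 3.84% of all genes were. Within replicate numbers 1, 2 and 3, Vcam1 differed by 1.29, 0.18 and 0.63 in mean log2 CPM and Madcam1 by 0.97, 0.98 and 0.90. Each of these means joins a labelled male and a labelled female. Between animals of the same labelled sex and number, Vcam1 was higher in CDmetf in 5 of 6 pairs and Madcam1 in 4. Madcam1 was lower in CDmetf F1 (1.63 CPM) than in CD F1 (2.09), and in CDmetf M2 (3.01) than in CD M2 (3.46). CDmetf vs. CD and HFD vs. CD share the 6 CD libraries, so the values of both above CD are not independent of each other.

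HFDmetf vs. CDmetf asks about the diet under metformin. Here 7 of the 9 genes had fitted values below CDmetf, where 55.2% of all genes had values above it, and the median logFC was -0.27 against 0.033 over all genes. Itgal, the alpha chain of LFA-1, had logFC = -0.85 (SE 0.33, FDR = 0.599), which was 0.554-fold, and was the member with an unadjusted p under 0.05, where 4.04% of all genes were lower at that threshold. Within replicate numbers 1, 2 and 3 it differed by -0.59, -1.18 and -0.69 in mean log2 CPM. Madcam1 had logFC = -0.65 (SE 0.46), Itgb7 -0.38 (SE 0.37) and Itga4 -0.36 (SE 0.24), each with an interval that included 0. No member passed FDR 0.05 with edgeR, DESeq2 or limma-voom, each of which called 0% of all genes. At the unadjusted threshold DESeq2 and limma-voom each had 1 member, where 9.34% and 9.38% of all genes passed. The weighted fit called Madcam1, Itgb7 and Itgal lower, beside 4.23% of all genes. Without HFD F1 and CD F3 it called 1.82% of all genes in either direction, against 6.44% with them, and none of the 9. Madcam1 was then at -1.05 (FDR = 0.120), Itgal at -0.78 (FDR = 0.0887) and Itgb7 at -0.67 (FDR = 0.176), and 6 members had an unadjusted p under 0.05, where 20.0% of all genes did. Without CDmetf F2 and HFD F1, Itgal stood at logFC = -0.58.

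HFDmetf vs. HFD asks what metformin went with under the high-fat diet. The fitted values of 5 genes lay below HFD and those of 4 above, where 53.9% of all genes lay above. No member had an unadjusted p under 0.05, where 6.61% of all genes had one in either direction. Itgal had the largest value, logFC = -0.68 (95% interval -1.37 to 0.02, FDR = 0.640), and was below HFD within each replicate number (-0.64, -0.65 and -0.46 in mean log2 CPM). Vcam1 had logFC = 0.27 (95% interval -0.20 to 0.74), an interval that reached the 0.73 fitted under the control diet. edgeR, DESeq2 and limma-voom called 0 members and 0% of all genes, and at the unadjusted threshold DESeq2 and limma-voom each had 1 member, where 7.98% and 8.1% of all genes passed. The weighted fit called Icam1, Madcam1, Itgb7 and Itgal lower, beside 8.01% of all genes. Without HFD F1 and CD F3 it called 0% of all genes, and Itgb7, at -0.68 (FDR = 0.294), was the member with an unadjusted p under 0.05, where 16.3% of all genes had one.

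**Figure D3:**
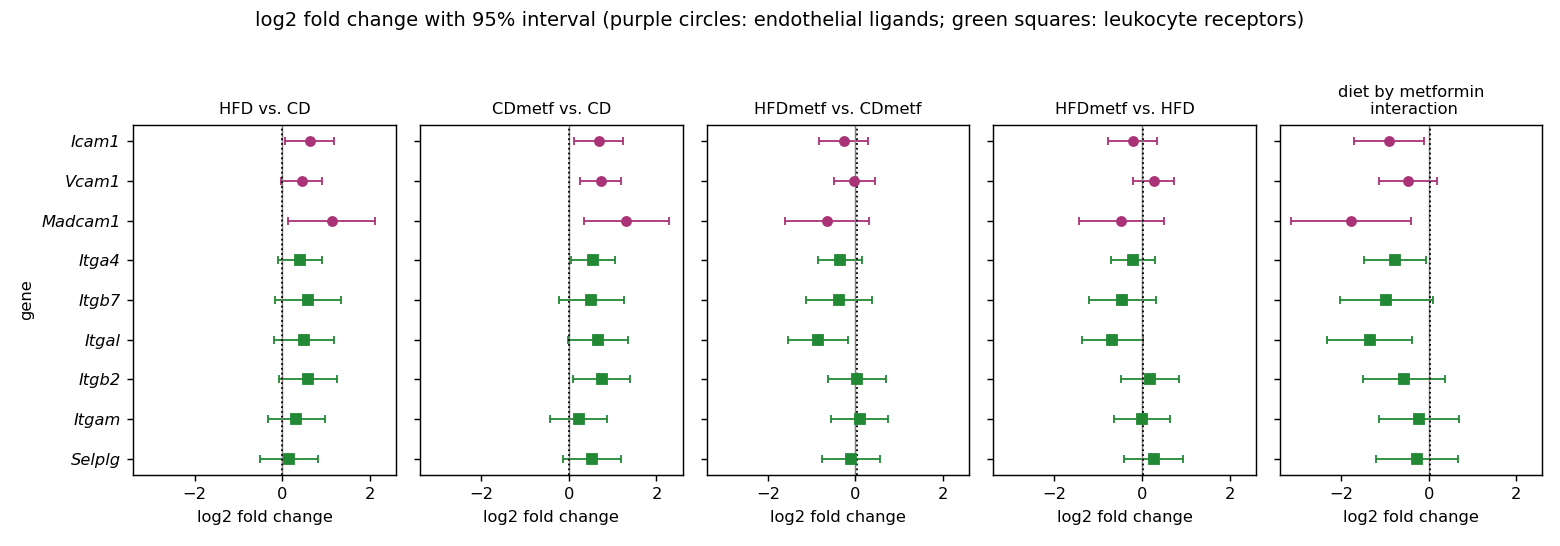
log2 fold change of each gene with its 95% interval in the 4 comparisons and for the diet by metformin interaction (purple circles, ligands; green squares, receptors); the dotted line is the median of all genes tested. All 9 values lie above 0 in HFD vs. CD and CDmetf vs. CD, and all 9 lie below 0 for the interaction.

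The interaction asks whether the diet difference was itself different under metformin. All 9 values lay below 0, with a median of -0.76 against 0.032 over all genes, of which 54% had values above 0. Itgal (-1.35, SE 0.47), Madcam1 (-1.78, SE 0.66), Icam1 (-0.90, SE 0.38) and Itga4 (-0.76, SE 0.34) had an unadjusted p under 0.05, where 2.99% of all genes did with a value below 0. None passed FDR 0.05 (0% of all genes did), and the lowest FDR of a member was 0.799. DESeq2 (0.0284% of all genes called) and limma-voom (0%) called 0 members, with 4 and 6 at the unadjusted threshold, where 7.01% and 6.8% of all genes passed. The weighted fit called 8 of 9 lower, all but Itgam, beside 4.35% of all genes. Without HFD F1 and CD F3 it called 0% of all genes, with Madcam1 at -1.71 and Itgal at -1.14 (FDR = 0.339 and 0.337) and 5 members at an unadjusted p under 0.05, where 11.5% of all genes were. Without CDmetf F2 and HFD F1, the edgeR values were -0.82 for Itgal and -0.84 for Madcam1. Since the interaction is built from the same 4 groups, it adds no further samples to the comparisons above.

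Between the sexes, no member passed FDR 0.05 for a difference in any of the 4 comparisons (edgeR, 14402 genes tested, 0% called). For HFDmetf vs. CDmetf, Itgam had a logFC of 0.92 in males and -0.60 in females (difference 1.52, SE 0.54) and Selplg one of 0.55 and -0.79 (difference 1.34), at a threshold that 5.28% of all genes met. For CDmetf vs. CD, Itgam had -0.56 in males and 0.87 in females (difference -1.43), where 5.21% of genes met the threshold. Both comparisons of Itgam share the CDmetf libraries, in which the 3 females lay between 4.91 and 6.53 CPM and the 3 males between 2.10 and 3.43 CPM. In HFD vs. CD and HFDmetf vs. HFD no member reached an unadjusted p of 0.05, where 2.11% and 3.33% of genes did. With HFD M2 and HFD F2 removed, the HFDmetf vs. HFD differences of Selplg (1.56) and Icam1 (1.24) did, where 4.19% of genes did. In HFDmetf vs. CDmetf, Itgb2 (1.13) then joined Itgam and Selplg, where 5.74% of genes met the threshold.

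The ligands and the receptors were also set against each other within each library. CPM is not adjusted for length, so the difference between both sets is read here only for how it varied between groups. The mean log2 CPM of the 3 ligands minus that of the 6 receptors was -0.87 ± 0.26 in CD, -0.55 ± 0.25 in CDmetf, -0.71 ± 0.39 in HFD and -0.59 ± 0.28 in HFDmetf (SD, n = 6 each). The difference of CDmetf from CD, 0.32, exceeded the SD of either group, and those of the other 3 comparisons were below it. The lowest value was that of CD M3, at -1.41. Without CD M3, CDmetf exceeded CD by 0.22, which was below the SD of CDmetf (0.25). CDmetf F2 was the highest library for both ligands and receptors, and CD F3 the lowest for both.

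**Figure D4:**
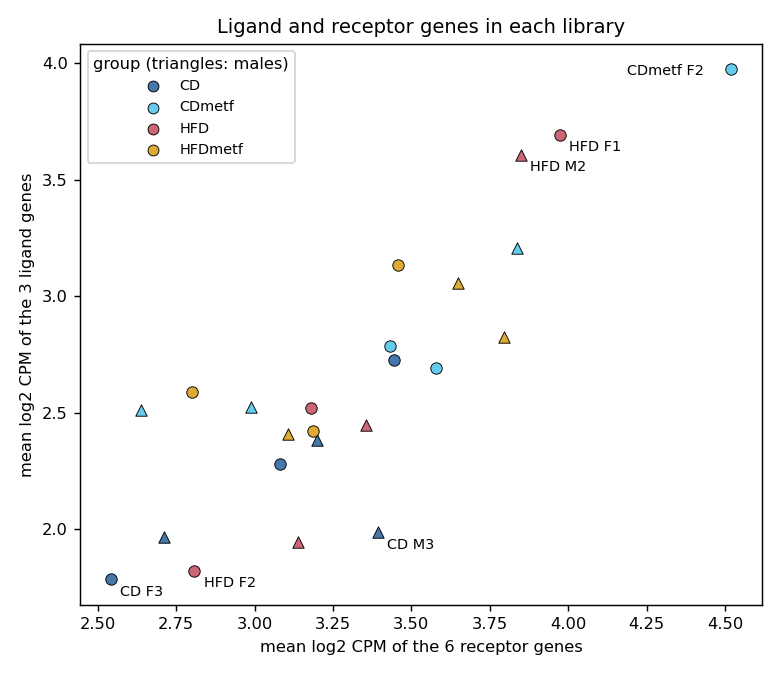
Mean log2 CPM of the 3 ligand genes against that of the 6 receptor genes in each library, coloured by group (triangles, labelled males). CDmetf F2 lies highest at 4.52 for the receptors and 3.97 for the ligands, and CD F3 lowest at 2.54 and 1.79.

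Chains that pair on the cell surface were followed as log2 ratios of CPM within each library. Itgb7 over Itga4 averaged -2.28 ± 0.49 in CD, -2.48 ± 0.43 in CDmetf, -2.17 ± 0.59 in HFD and -2.32 ± 0.53 in HFDmetf, and thus differed by less than its SD between groups. Itgal over Itgb2 averaged 0.020 ± 0.30 in CD, -0.057 ± 0.35 in CDmetf and -0.15 ± 0.46 in HFD, but -0.98 ± 0.81 in HFDmetf (SD, n = 6 each). In HFDmetf it ran from -2.05 in HFDmetf F2 to -0.049 in HFDmetf F1 and overlapped the other groups. Itgb2 is also the partner of Itgam, Itgax and Itgad. Itgam over Itgb2 averaged -1.60 ± 0.47, -2.07 ± 0.69, -1.76 ± 1.22 and -2.02 ± 0.62 in CD, CDmetf, HFD and HFDmetf. Itgae, the chain that pairs with Itgb7 on intraepithelial lymphocytes, stood to Itgb7 at 0.39 ± 0.39, 0.018 ± 1.00, 0.097 ± 0.84 and 0.11 ± 0.75 in the same order.

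Of 37 further genes of the adhesion pathway, 31 were tested, and Sele, Selp, Glycam1, Fut7, Icam2 and Itgad stayed below the filter. Sele, the endothelial selectin, had no read in 13 of 24 libraries and at most 8 reads. At the unadjusted threshold, 2 had higher and 0 lower values in HFD vs. CD, 4 and 0 in CDmetf vs. CD, 2 and 3 in HFDmetf vs. CDmetf, and 3 and 2 in HFDmetf vs. HFD. Over all genes, 4.63%, 5.14%, 7.87% and 6.61% passed this threshold in either direction in the same 4 comparisons. None passed FDR 0.05 with edgeR. The median logFC of the 31 genes was 0.12, 0.28, -0.097 and 0.036 in these comparisons. Among selectins and their ligands, Podxl, a sialomucin of endothelium, had logFC = 0.61 in HFDmetf vs. HFD.

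Among the enzymes that build selectin ligands, Gcnt1 was at -1.04 in HFDmetf vs. CDmetf and Fut4 reached no unadjusted p under 0.05. Of the other endothelial adhesion and junction genes, Jam2 was at 0.66 in HFDmetf vs. HFD and Esam at 0.55 in HFDmetf vs. CDmetf. In the same 2 comparisons Madcam1 was at -0.47 and -0.65, Icam1 at -0.22 and -0.27 and Vcam1 at 0.27 and -0.023. Each of these ligand values had a 95% interval that included 0. Of the other integrin chains, Itgax, the CD11c chain of dendritic cells and macrophages, was higher in HFDmetf vs. HFD (0.60) and in HFDmetf vs. CDmetf (0.45), and Itgav was at -0.39 in HFDmetf vs. CDmetf. Among genes that switch integrins on from inside the leukocyte, Fermt3, which encodes kindlin-3, was at 0.67 in HFD vs. CD and 0.76 in CDmetf vs. CD. Sipa1, a regulator of Rap1, was at 0.80 in CDmetf vs. CD. In HFDmetf vs. CDmetf, 9 of the 10 genes of this role had values below 0, and 0 had an unadjusted p under 0.05.

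Lymphocytes carry these receptors, and in whole tissue fewer cells of a type and less RNA per cell cannot be told apart. All 10 B-cell and all 7 tested T-cell markers had fitted values above CD in HFD and in CDmetf, and below CDmetf and below HFD in HFDmetf, where 5 of the 9 members lay below HFD and 4 above. None of these markers passed FDR 0.05 in any of the 4 comparisons. Over all genes, 4.63% in HFD vs. CD, 5.14% in CDmetf vs. CD, 7.87% in HFDmetf vs. CDmetf and 6.61% in HFDmetf vs. HFD had an unadjusted p under 0.05 in either direction. Of 10 B-cell markers, at the unadjusted threshold 8 were higher in HFD vs. CD (median logFC 1.83), 10 higher in CDmetf vs. CD (2.24), 10 lower in HFDmetf vs. CDmetf (-2.53) and 9 lower in HFDmetf vs. HFD (-2.28), with FDR of at least 0.582. Their summed level ran from 7.45 to 83.2 CPM in CD, from 14.7 to 455 in CDmetf, from 15.2 to 362 in HFD and from 9.59 to 32.4 in HFDmetf. The sum lay above 50 CPM in 6 libraries, namely CDmetf F2, HFD F1, HFD M2, CDmetf M1, CDmetf F3 and CD F1, and below it in the other 18. Fcer2a was at 0 in 1 library and Blk in 2. Of 7 tested T-cell markers, 2 were higher in HFD vs. CD, 2 higher in CDmetf vs. CD, 5 lower in HFDmetf vs. CDmetf and 2 lower in HFDmetf vs. HFD, with summed levels of 13.4 to 38.2, 13.8 to 106, 19.9 to 62.9 and 16.2 to 34.7 CPM in CD, CDmetf, HFD and HFDmetf. The part of these cells in the results was not tested.

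Endothelial markers gave smaller values than B-cell markers in the comparisons with CD. At the unadjusted threshold, 4.63%, 5.14%, 7.87% and 6.61% of all genes passed in either direction in HFD vs. CD, CDmetf vs. CD, HFDmetf vs. CDmetf and HFDmetf vs. HFD. Of 9 endothelial markers tested, 0 passed it in HFD vs. CD and in CDmetf vs. CD (median logFC 0.018 and 0.097). In HFDmetf vs. CDmetf 1 was higher and in HFDmetf vs. HFD 2 were higher (median logFC 0.37 and 0.53). Their summed level ran from 81.3 to 168 CPM in CD, from 91.0 to 208 in CDmetf, from 41.98 to 181 in HFD and from 72.2 to 307 in HFDmetf. Of 10 macrophage markers, 0 and 2 were higher in HFD vs. CD and CDmetf vs. CD, and 2 and 3 in HFDmetf vs. CDmetf and HFDmetf vs. HFD, with 1 lower in the last, and the sum ran from 155 to 340 CPM over all libraries. The neutrophil markers S100a8 and Mpo were at 0 in 23 of 24 libraries and the sum of the list never exceeded 4.96 CPM. Of the lymphoid stroma markers, Ccl21a was at 0 in all 24 libraries and Ccl19 in 21, while Cxcl13, a B-cell attractant, reached 37.3 CPM. The lists of lymphatic endothelium, epithelium, smooth muscle and adipocytes had median logFC of -0.24, 0.016, -0.32 and -1.56 in HFD vs. CD and of 0.052, 0.044, -0.015 and -1.89 in CDmetf vs. CD.

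Across the 24 libraries, 54 relations of members with each other and with summed marker lists were computed, with permutation tests (two-sided, 100000 permutations) adjusted over all of them. The permutations shuffled all libraries freely, without regard to group, sex or replicate number. Their p-values therefore do not allow for what libraries of a group or number share, and the relations are a description. Madcam1 went with the B-cell sum at r = 0.81 (rho = 0.74, adjusted permutation p = 9e-05 and 0.000742), and without CDmetf F2 and HFD F1, the farthest libraries, r was 0.68. Itgb7 went with it at r = 0.83 (rho = 0.82, adjusted permutation p = 6.75e-05 and 0.00054, r = 0.74 without the same libraries). Itgam had r = -0.15 with it (rho = -0.043, adjusted permutation p = 0.519 and 0.858, r = -0.23 without them), and Vcam1 had r = 0.28 (rho = 0.27, adjusted permutation p = 0.228 and 0.276, r = 0.14 without them). Vcam1 had r = 0.56 with the lymphoid stroma sum (rho = 0.42, adjusted permutation p = 0.0081 and 0.0656). Without CD M1 and CDmetf F2 r was 0.47. Madcam1 had r = 0.79 with that sum (rho = 0.74, adjusted permutation p = 6.75e-05 and 0.00054), and 0.72 without those libraries. Vcam1 and the T-cell sum had r = 0.43 (rho = 0.44, adjusted permutation p = 0.0573 and 0.0517). Without CDmetf F2 and HFD M2 r was 0.36. The libraries were also split at a B-cell sum of 50 CPM, between HFD M1 (45.8) and CD F1 (83.2), and r was taken within each set. Over the 18 libraries below 50 CPM, r was 0.61 for Madcam1, 0.69 for Itgb7 and 0.60 for Selplg, but 0.097 for Icam1 and 0.19 for Itgal. Over the 6 above, it was 0.94, 0.91, 0.85, 0.93 and 0.98 in the same order. Itga4 had 0.33 below the cut and 0.92 above it, Vcam1 had -0.063 and 0.77, and each member had a higher r above it. For Icam1 and Itgal the pooled r was 0.70 and 0.82, and 0.48 and 0.68 without CDmetf F2 and HFD F1. The cut was chosen after seeing the data, and a narrower range of the sum changes r by itself. The split thus cannot tell which libraries a pooled relation rested on. With group, sex and replicate number taken out, r of Madcam1 with the B-cell sum was 0.86 and that of Itgal was 0.76. Values of a library share its depth, and the share of lymphoid tissue in the piece sampled was not measured.

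**Figure D5:**
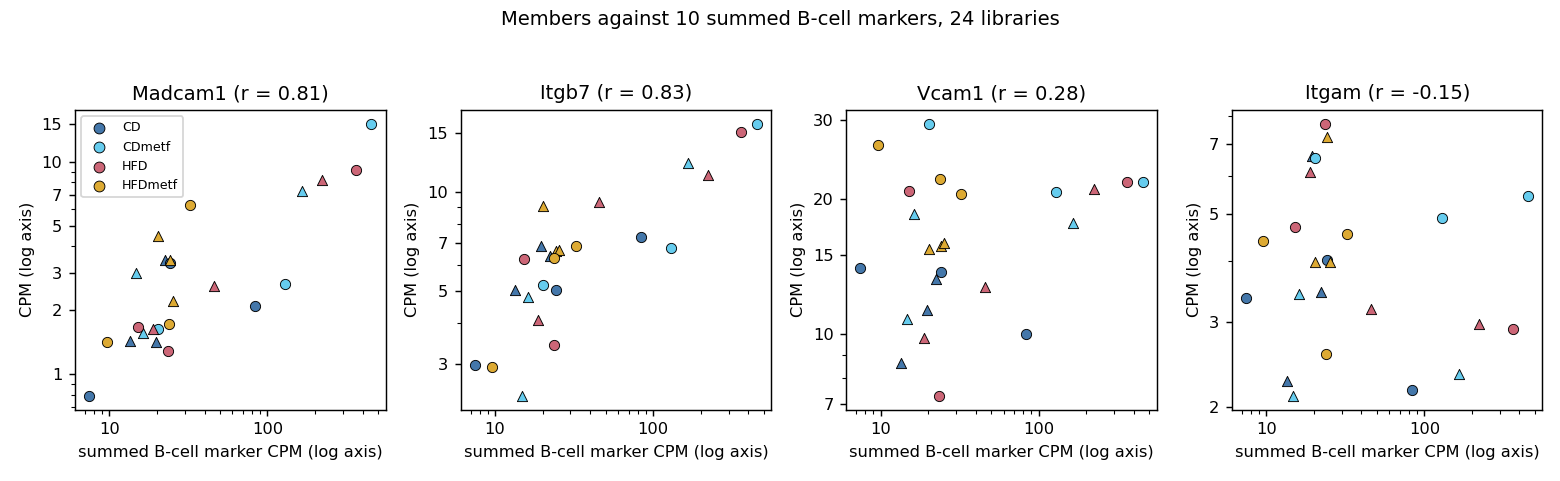
CPM of Madcam1, Itgb7, Vcam1 and Itgam against the summed CPM of 10 B-cell markers in 24 libraries (log axes, coloured by group; triangles, labelled males). Madcam1 and Itgb7 rise along the axis with r = 0.81 and 0.83, while Vcam1 (r = 0.28) and Itgam (r = -0.15) scatter.

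Madcam1 also went with its receptor chains, at r = 0.77 with Itga4 (rho = 0.66, adjusted permutation p = 0.000166 and 0.0032, r = 0.67 without CDmetf F2 and HFD F2) and 0.78 with Itgb7 (rho = 0.70, adjusted permutation p = 6.75e-05 and 0.00123, r = 0.83 without CDmetf F2 and CDmetf M2). Vcam1 with Itga4 had r = 0.55 (rho = 0.48, adjusted permutation p = 0.00855 and 0.0318, r = 0.42 without CDmetf F2 and HFD F2). Icam1 with Itgal had r = 0.67 (rho = 0.49, adjusted permutation p = 0.00101 and 0.0298), and r was 0.44 without CDmetf F2 and HFD F1. Icam1 with Itgam had r = -0.078 (rho = -0.070, adjusted permutation p = 0.731 and 0.775, r = -0.035 without CDmetf M2 and HFD F2). Of all relations, that of Itgb2 with the macrophage sum was the largest for a macrophage list (r = 0.72, rho = 0.69, adjusted permutation p = 0.000324 and 0.00123, r = 0.64 without CD F3 and HFDmetf M2).

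By likeness of pattern over the 24 libraries (Pearson r of log2 CPM, a description), the genes nearest to Madcam1 were Hhex (0.92), Sema4d (0.91) and Myo1g (0.90), and 74 genes exceeded r = 0.8. Itgb7 was nearest to Arhgap30 (0.92), Wdfy4 (0.91) and Myo1g (0.91), and Itga4 to Dock10 (0.91), Ptprc (0.91), which encodes the pan-leukocyte marker CD45, and Apbb1ip (0.91). Itgal was nearest to Ppp1r16b (0.91), the chemokine receptor gene Cxcr4 (0.90) and H2-DMb2 (0.89), and Itgb2 to Nckap1l (0.92), Laptm5 (0.87) and the lysozyme gene Lyz2 (0.86). Icam1 was nearest to Csmd1 (0.85), Ets1 (0.81) and Prkcb (0.81), with Nfkbie, an inhibitor of NF-kappa B, at 0.79. Vcam1 had no gene above r = 0.8 and was nearest to Cd86 (0.74), Zfp369 (0.73) and Slamf7 (0.72). Itgam had none either, with Srek1ip1 (0.78), Mrps30 (0.75) and Tfam (0.75) nearest. Selplg was nearest to Ptpn1 (0.89), Ep400 (0.88) and Rin3 (0.87).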

How the data were processed

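RNA-seq libraries were made by the authors after rRNA depletion, with a directional kit and 1 library per animal. Reads were trimmed by the authors with Trimmomatic 0.39 and mapped to GRCm38 and counted with STAR 2.5.3a, and the deposited values are raw read counts per gene. Which annotation release was used, and with which strand setting, is not given in the sources used here. Genes on the opposite strand overlap Icam1, Vcam1 and Itga4 (Cerkl, at most 28 reads) and 1 overlaps Itgam on the same strand (at most 2 reads), so these reads could not be told apart. Between 35.5% and 75.7% of the reads counted per library fell outside genes or were ambiguous, multimapping or unmapped, and those 4 rows were left out of library sizes.

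Counts were analysed in R 4.3.3 with edgeR 4.0.16: filterByExpr, TMM scaling and a quasi-likelihood test on a design of group, labelled sex and replicate number over all 24 libraries (17 residual degrees of freedom), with Benjamini-Hochberg adjustment over 14076 genes. The study's methods adjust for sex and for the block of sequencing. The replicate number of the labels stood for the block, though the labels do not say that it is one. Same-numbered animals of the same sex in different groups had a mean correlation of residual deviations of 0.17 (36 pairs, 23 above 0.1), against -0.028 for other numbers (72 pairs). Differences between sexes came from a fit with 8 groups. log2 CPM used a prior count of 1, and lengths and coordinates came from GENCODE M21 (GRCm38). Alternatives were DESeq2 1.42.0, limma-voom 3.58.1 with and without sample quality weights, other scaling and filters, fits without some terms and fits without single libraries. The fits without CDmetf F2 and HFD F1, without CD M3 and HFDmetf F2, and the weighted fit without HFD F1 and CD F3, the split of libraries at a B-cell sum of 50 CPM and the permutation tests of the 54 relations (SciPy 1.17.1) were chosen after seeing the data. Simulated data with 200 genes of log2 change 1 gave 65.5% recovered in CDmetf vs. CD. Its genes were drawn independently of each other, without differences of sex, replicate number or tissue piece. The share recovered is therefore not the chance of a call for a member in the real libraries.

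The 9 genes, the pathway and marker lists and the motifs were chosen with earlier results of these data known, and 6 of the 9 (Icam1, Vcam1, Madcam1, Itgb7, Itgal and Selplg) were among genes the study picked from these samples, so their counts are not independent evidence. All 9 members are named, with 2 pathway genes per role by smallest p over the 4 comparisons and the nearest genes by r. 1 pathway gene that this rule names is not reported here. Each animal came from its own cage, so the p-values of the comparisons measure the spread between animals.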

Additional observations from a re-analysis of the deposited data

Results flagged for a closer look

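Of 36 combinations of gene and group, 1 held a library far from the others. Icam1 in CDmetf reached 11.5 CPM in CDmetf F2, while the other 5 libraries lay between 5.23 and 6.10 CPM, and the gap was 0.860 of the group's range, above the critical value of 0.625 of Dixon's test for 6 samples. Chance alone is met in about 1 in 20 groups with this test, so a single case among 36 is within that rate. CDmetf F2 also held the highest B-cell sum (455 CPM), and the part of this in its Icam1 level was not tested.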

How the results depend on the processing

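Under every edgeR setting tried, DESeq2 and limma-voom without sample weights, 0 members were called in the 4 comparisons and the interaction, also without the replicate block, so the block changed no call. Whether the replicate number marks the sequencing block is not stated. Without the replicate block, Itgam in HFDmetf vs. HFD stood at -0.013 against 0.0061. With sample quality weights 7 members were called in HFD vs. CD, 3 in HFDmetf vs. CDmetf, 4 in HFDmetf vs. HFD, 2 in CDmetf vs. CD and 8 for the interaction. Without HFD F1 and CD F3 it was 0 in each, while the share of all genes called went from 10.1% to 0.0279%, 6.44% to 1.82%, 18% to 0%, 0.263% to 0.0698% and 6.9% to 0% in the same order, and Vcam1 in CDmetf vs. CD missed the threshold at FDR = 0.0531 with logFC = 0.88. Requiring 10 counts in every library left 4 of the 9 genes to test. Depth limits Madcam1 most, with as few as 3 reads in a library.

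Some values turned sign. In HFDmetf vs. CDmetf, Vcam1 stood at 0.028 (limma-voom), 0.058 (weighted) and 0.10 (weighted, without HFD F1 and CD F3). Itgb2 stood there at -0.27 (weighted), -0.18 (weighted, without those libraries), -0.021 (no filter), -0.024 (12 libraries) and -0.017 (without CD M3 and HFDmetf F2), and Selplg at 0.093 (without CDmetf F2 and HFD F1). In HFDmetf vs. HFD, Madcam1 stood at 0.022 (without CDmetf F2 and HFD F1) and Itgb2 at -0.34 (weighted), -0.032 (weighted, without HFD F1 and CD F3) and -0.081 (without HFD M2 and HFD F2). Itgam stood there at -0.016 (DESeq2), -0.017 (weighted), -0.14 (weighted, without HFD F1 and CD F3), -0.022 (RLE), -0.037 (no filter), -0.0071 (no sex term), -0.052 (12 libraries) and -0.11 (without CDmetf F2 and HFD F1). Selplg, at 0.26 with edgeR, stood there at -0.082 (limma-voom), -0.34 (weighted, FDR = 0.123) and -0.060 (weighted, without HFD F1 and CD F3). The value of -0.34 had an unadjusted p under 0.05, where 34.7% of all genes had one. For the interaction Selplg stood at 0.090 (without CDmetf F2 and HFD F1). The cause was not tested.

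With single libraries left out, the logFC of Selplg ran from -0.00062 to 0.42 in HFD vs. CD. In HFDmetf vs. CDmetf, Vcam1 ran from -0.12 to 0.075, Itgb2 from -0.20 to 0.23, Itgam from -0.074 to 0.37 and Selplg from -0.28 to 0.095. In HFDmetf vs. HFD, Madcam1 ran from -0.72 to 0.019, Itgb2 from -0.033 to 0.29 and Itgam from -0.20 to 0.13. Itgam ran from -0.051 to 0.45 in CDmetf vs. CD and from -0.46 to 0.012 for the interaction. The count of members below the unadjusted threshold ran from 0 (without CD F3, HFD F1 or HFD M2) to 7 (without HFD F2) in HFD vs. CD, from 1 (without CDmetf F2) to 7 (without CD M3 or CDmetf M2) in CDmetf vs. CD and from 1 (without HFD F1) to 6 (without CDmetf M2 or HFD F2) for the interaction. Over the same fits, the share of all genes below that threshold ran from 3.34% to 8.42%, 3.48% to 6.34% and 4.13% to 8.74%.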
